A study of Mus musculus with 40 samples.

Results

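Alcohols, aldehydes, quinones and inhaled or swallowed foreign compounds are broken down in the lining of the upper airway and esophagus by a set of oxidising, reducing and conjugating enzymes, and 8 of their genes were followed here through 40 RNA-seq libraries of the developing mouse larynx, trachea and esophagus. They were Adh1 and Adh7 (alcohol dehydrogenases), Aldh3a1 (an aldehyde dehydrogenase), Cyp2f2 and Cyp2a5 (cytochrome P450 enzymes), Gsta4 (a glutathione transferase), Nqo1 (a quinone reductase) and Cbr2 (a carbonyl reductase), 8 of the 53647 gene identifiers listed in the deposited tables. The 8 were chosen as metabolic enzymes of this epithelium and selected on their rise after birth in the larynx, so that rise is given as a description, with no test. The 8 were tested only between embryonic libraries, whose values that rule does not use, although earlier results of these libraries were known when the genes were chosen. Other genes of the pathway were also tested between P0 and adult.

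The animals were wild-type FVB/N mice, an inbred strain, and no group was treated. The larynx gave 16 libraries and the trachea and esophagus 12 each, in 20 groups of organ, age and library kind with 2 libraries a group. All 3 organs were taken at 5 embryonic ages, named by day of gestation (E10.5 and E11.5, then E13.5, then E15.5, and last E18.5), and the larynx also on the day of birth (P0) and from adults of 6 to 8 weeks. Embryonic tissue was pooled from 10 animals, or from 20 at E15.5, and whether these numbers hold for a library or for an age was not stated. Whether tissue was pooled at P0 and in adults was not stated either. The labels named libraries in 2 ways. In 30 "short-code" libraries the title ended in a short code, and in 10 "index" libraries in a sequencing index. E15.5 was covered by both kinds, P0 and adult by index libraries alone, and the other ages by short-code libraries alone. What is called larynx throughout here goes by several names in the labels: vocal fold in titles of index libraries, primitive laryngopharynx for the E10.5 libraries, and larynx for the rest. Nothing in the labels says that the 2 libraries of a group came from separate litters, so p-values measure the spread between libraries, which may in part be technical.

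Depth ran from 3286403 to 35831491 expected counts a library, with a median of 28567039.5 in the index libraries. Levels are given as normalized counts, which are a gene's expected count divided by a median-ratio factor for its library. The general epithelial markers Epcam, Cdh1, Krt8, Krt18, Krt19, Esrp1 and Esrp2 summed to between 126 and 1410 CPM (expected counts in 1000000 of the library) in every library from E13.5 on but 1, with all 7 detected. That 1 was from the E15.5 trachea (short-code library 1), where they summed to 28.4 CPM with 1 of 7 at 0, and where a list of adipocyte markers summed to 5646 CPM. A further library stood apart, index library 2 of the E15.5 esophagus, in which 8 squamous cell markers summed to 72490 CPM against 1483 to 4719 CPM in the other 3 esophagus libraries of that age. Results that rest on either library are given with and without both.

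Alcohol dehydrogenases turn alcohols, retinol among them, into aldehydes, and aldehyde dehydrogenases oxidise these further to acids. Cytochrome P450 enzymes put oxygen into foreign molecules and can make them more reactive, while glutathione transferases, quinone reductases and carbonyl reductases turn reactive products into less harmful ones. Club cells of the airway lining are known for Cyp2f2 and Cbr2, squamous lining for Adh7 and Aldh3a1, and nasal mucosa and liver for Cyp2a5.

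In the GRCm39 annotation all 8 were protein-coding genes and 2 pairs of them lay near each other. On chromosome 3, Adh7 (chr3:137923521-137939938, plus strand) ended 26.8 kb before Adh1 (chr3:137966752-137996462, plus strand). On chromosome 7, Cyp2a5 (chr7:26534730-26542973, plus strand) ended 276.3 kb before Cyp2f2 (chr7:26819322-26833090, plus strand). Aldh3a1 (chr11:61098363-61109247, plus strand) and Cbr2 (chr11:120620312-120622940, minus strand) were far apart on chromosome 11. Gsta4 was on chromosome 9 (chr9:78090056-78117763, plus strand) and Nqo1 on chromosome 8 (chr8:108113835-108129934, minus strand).

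Cyp2a5 is the member whose reads are hardest to place, because its coding sequence was 98.5% identical to that of Cyp2a4, a paralog on the same chromosome, with 23 of 1485 coding bases differing and an identical run of up to 216 bases. A stretch of exon 2 (coding bases 197 to 256), in which 3 bases separate the paralogs, is shown to make this plain. It is GRCm39 sequence on the plus strand, 5′ to 3′, from chr7:26535236-26535295 for Cyp2a5 and chr7:26007091-26007150 for Cyp2a4, with the differing bases in capitals.
Cyp2a5: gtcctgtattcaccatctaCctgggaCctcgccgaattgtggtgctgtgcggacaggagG
Cyp2a4: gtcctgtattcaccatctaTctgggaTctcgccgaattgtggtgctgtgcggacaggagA
The program that made the counts divides reads which match several genes, so a Cyp2a5 level could hold reads of Cyp2a4 and the reverse. Cyp2a4 was estimated at 6.63 and 5.08 normalized counts in the adult larynx and at no more than 3.35 in any other library, against 18300 and 19780 for Cyp2a5 in the adult. No other member had so close a relative. The next highest protein identity of a member with any relative was 72.1%, between Cyp2a5 and Cyp2a12, and Adh7 and Adh1 shared 64.2% of residues.

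Promoters are shown as a description of the sequence before these genes. RefSeq promoter sequences (GRCm38.p6) matched 6 of the 8, with Aldh3a1 and Gsta4 not matched. The 60 bases before the start annotated by RefSeq are given 5′ to 3′ on the gene's own strand, with the motif TATAAA in capitals. That start can differ from the start of the gene span given above. By its distance from the Adh7 start, that of Adh1 lies inside its span.
Adh1 (chr3:138277525-138277584, plus strand): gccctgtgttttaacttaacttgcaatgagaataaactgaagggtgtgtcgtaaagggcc
Adh7 (chr3:138217713-138217772, plus strand): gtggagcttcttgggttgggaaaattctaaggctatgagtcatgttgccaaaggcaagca
Cyp2f2 (chr7:27119895-27119954, plus strand): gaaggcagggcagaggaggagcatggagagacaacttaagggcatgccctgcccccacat
Cyp2a5 (chr7:26835279-26835338, plus strand): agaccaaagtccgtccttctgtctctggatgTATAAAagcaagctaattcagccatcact
Nqo1 (chr8:107403206-107403265, minus strand): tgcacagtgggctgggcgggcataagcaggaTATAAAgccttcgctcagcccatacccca
Cbr2 (chr11:120732022-120732081, minus strand): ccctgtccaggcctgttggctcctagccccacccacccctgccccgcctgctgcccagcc
In the 250 bases before the start, searched on both strands, TATAAA was present in Cyp2a5 and in Nqo1, in each starting 29 bases before the start, and in Adh7 on the opposite strand 202 bases before it. Of 32851 mouse promoters of that length, 12.4% held it. The antioxidant response motif TGACNNNGC was in none of the 6 and in 10.2% of all promoters, and the aryl hydrocarbon response motif GCGTG was in none of the 6 and in 28.2% of all. These searches describe letters in these windows only.

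In the adult larynx all 8 genes stood above P0 in both libraries, as selected. Summed over the 8, their share of all counts was 0.0394% and 0.0496% in the E15.5 index larynx, 0.120% and 0.0951% at P0, and 0.779% and 0.881% in the adult. Libraries of adult and P0 did not overlap for any of the 8, while 23.3% of the 36495 genes tested had all adult libraries above all P0 libraries, and nothing is read from that count because this rise chose the members. The median log2 difference of the 8 was 2.80, against 0 over all genes.

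Among the alcohol dehydrogenases, Adh7, a form of stomach and upper digestive lining that acts on ethanol at high concentration and on retinol, held 148.1 and 130.6 normalized counts in the E15.5 index larynx, 170.9 and 131 at P0 and 9160 and 6779 in the adult. It was nearly level from E15.5 to P0 (1.10-fold) and 51.1-fold higher in the adult than at P0 (log2 difference 5.72 ± 0.96, SE, n = 2 libraries a group). This SE and those given below for the rise after birth rest on a spread shared by all 20 groups. No test is read from them, because this rise chose the members. Adh1, the liver-type class that is also found in many other tissues, held 233.6 and 346.9 at E15.5, 471.4 and 491.1 at P0 and 1603 and 1432 in the adult, a 3.14-fold adult over P0 difference (log2 1.66 ± 0.47). Aldh3a1, which oxidises fatty and aromatic aldehydes and is abundant in cornea and squamous lining, held 67.3 and 75.2 at E15.5, 239.8 and 176.5 at P0 and 22990 and 17150 in the adult. Its 93.1-fold difference (log2 6.59 ± 1.53) was the largest of the 8.

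Cyp2f2, a club cell P450 known for activating naphthalene, was already high before birth, at 3158 and 3142 normalized counts at E15.5, 8659 and 7669 at P0 and 47500 and 66120 in the adult. It held the highest normalized counts of the 8 in the adult although its adult over P0 fold was 7.03 (log2 2.80 ± 0.83). Cyp2a5, a P450 that hydroxylates coumarin and nicotine, went from 20.5 and 10.4 at E15.5 to 660.5 and 306.7 at P0 and to 18300 and 19780 in the adult. Its 33.1-fold step from the E15.5 index libraries to P0 was the largest of the 8, but the short-code larynx libraries of E15.5, at 349.1 and 188.1, overlapped P0. From P0 to the adult the step was 37.8-fold (log2 5.30 ± 1.11).

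Gsta4, a glutathione transferase that conjugates reactive aldehydes from lipid peroxidation, held 606 and 1088 at E15.5, 2789 and 1755 at P0 and 15000 and 16600 in the adult, 6.80-fold above P0 (log2 2.80 ± 0.65). Nqo1, which reduces quinones and is a standard target of the transcription factor NRF2, held 153.4 and 295.8, then 248.1 and 260.5, then 754.9 and 635.4, and had the smallest adult over P0 fold of the 8 at 2.72 (log2 1.45 ± 0.74). Cbr2, a carbonyl reductase abundant in lung, held 1487 and 1864, then 7320 and 5620, then 26060 and 33640, 4.60-fold above P0 (log2 2.21 ± 0.70). Between the E15.5 index libraries and P0 there was no overlap for 6 of the 8, Adh7 and Nqo1 being the exceptions. Of all genes, 26.9% had P0 libraries wholly above the E15.5 index libraries. The order differed against the short-code larynx libraries of E15.5. There Adh1 (948.2 and 777.2) and Adh7 (273.7 and 237.4) lay above P0, and Cbr2 (5775 and 4322) and Cyp2a5 overlapped P0. The remaining members lay below P0 in them.

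**Figure D1:**
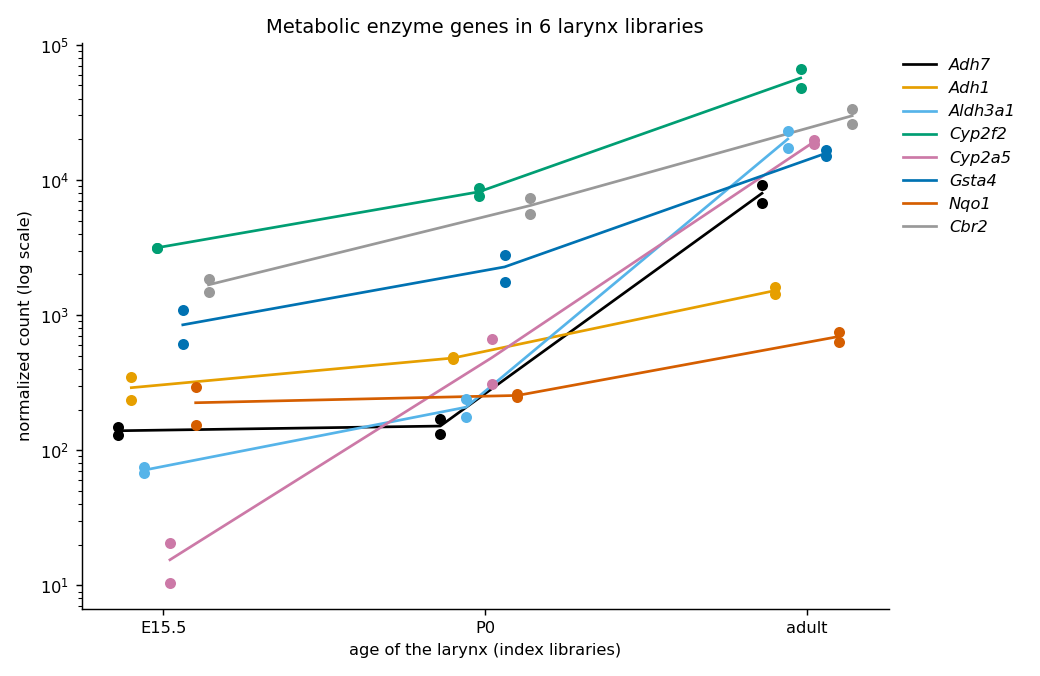
Normalized counts (log scale) of the 8 genes in the 6 index libraries of the larynx, by age. Each point is a library and lines join the group means. Adh7 and Nqo1 are nearly level from E15.5 to P0, and every gene is higher in both adult libraries than in both P0 libraries, with Aldh3a1 up 93.1-fold.

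Divided by exon length, the order of levels in the adult larynx changed. Cbr2 (1080 and 1374 CPM per kb) and Cyp2f2 (785.7 and 1079) led, the lower value of the one nearly meeting the higher value of the other. Aldh3a1 (536.6 and 394.8) and Cyp2a5 (486.5 and 518.5) followed and also overlapped, then came Gsta4 (301.2 and 328.8), Adh7 (110.1 and 80.4), Adh1 (26.8 and 23.6) and Nqo1 (15.1 and 12.6), each apart from its neighbours. At P0 Adh7 was the lowest of the 8 at 2.18 and 1.66 CPM per kb, and Aldh3a1 at 5.94 and 4.33 overlapped Nqo1 (5.27 and 5.49) and lay below Adh1 (8.35 and 8.63).

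Marker lists of cell types also differed between P0 and adult. In the adult the summed CPM of the 7 general epithelial markers was 1.85-fold that at P0 (774.5 and 593.2 at P0, 1126 and 1410 in the adult), that of the squamous list 7.06-fold, the basal cell list 3.91-fold and the secretory and club cell list 1.63-fold. A list of 9 submucosal gland markers summed to 2859 and 1879 CPM at P0 and 12930 and 21300 in the adult, and 9 thyroid follicle markers to 4819 and 8378 and then 32.2 and 44.8. Lists for mesenchyme and skeletal muscle stood at 0.291 and 0.42 of their P0 sums. All 7 epithelial markers were detected in all 4 libraries. In bulk samples fewer cells of a type and less RNA per cell cannot be told apart. The 7 epithelial markers include Krt8 and Krt18, which the paper describes as reduced when the esophageal lining stratifies. Their sum may therefore undercount stratified lining, and ratios to it are rough. Divided by the epithelial sum, Aldh3a1 went from 0.0172 to 0.0181 at P0 to 0.661 to 1.12 in the adult and Cbr2 from 0.549 to 0.552 to 1.28 to 1.3. Adh1 went from 0.0356 to 0.048 to 0.0552 to 0.0784, and Nqo1, at 0.0187 to 0.0255 and then 0.0245 to 0.0369, overlapped between the ages on this scale. The part of these markers in the rise was not tested.

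Before birth most of the 8 genes were higher at E18.5 than at E13.5, from very different starting levels, without a steady climb. In short-code larynx libraries Cbr2 went from 5775 and 4322 at E15.5 to 1164 and 1206 at E18.5. Cyp2f2, Cyp2a5, Adh7 and Adh1 were also lower there at E18.5 without overlap, while Aldh3a1, Gsta4 and Nqo1 overlapped. In short-code esophagus libraries Adh7 and Adh1 were lower and Cbr2, Aldh3a1 and Nqo1 higher, and in the trachea none was lower. The step from E15.5 was not tested. Across the 36 embryonic libraries all 8 varied with age in edgeR's quasi-likelihood test of a spline on age rank at an adjusted p of at most 0.01, while 34.4% of the 36267 genes tested did so. Adjusted p ran from 1.92e-17 for Cyp2f2 and 5.75e-14 for Cbr2 to 9.81e-05 for Gsta4 and 0.000164 for Nqo1. From E13.5 to E18.5, averaged over the organs, 7 of the 8 rose, Nqo1 being the exception, against 13.9% of genes that rose and 10.9% that fell. The median log2 difference of the 8 was 6.06, and 0 over all genes.

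**Figure D2:**
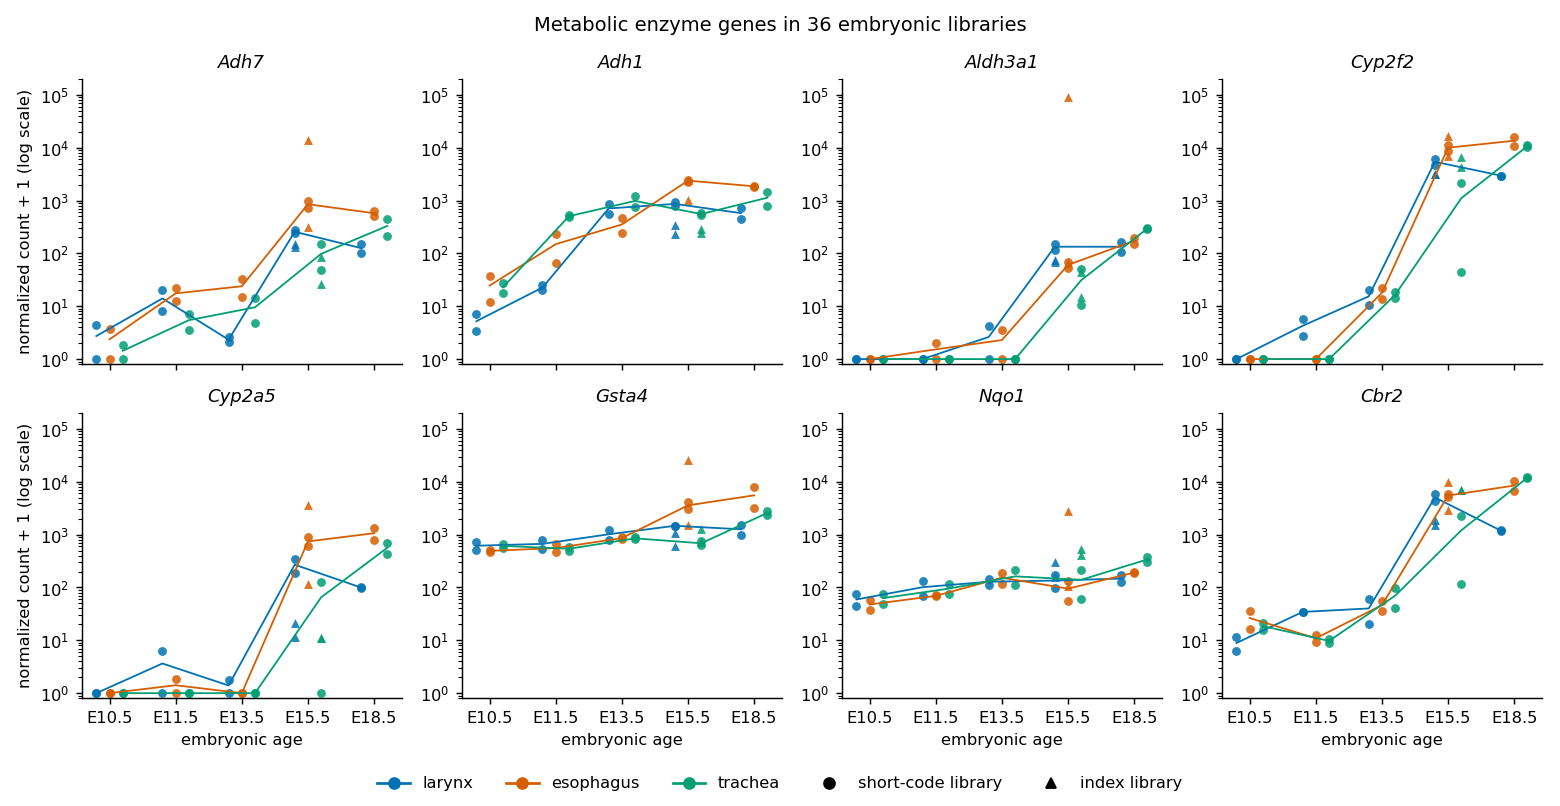
Normalized count + 1 (log scale) of each gene against embryonic age in 36 libraries, by organ (colour) and library kind (circle short-code, triangle index). The P450 genes and Aldh3a1 start at or near 0, Gsta4, Adh1 and Nqo1 are present well before E18.5, and at E15.5 single libraries of the esophagus and trachea lie far from the others.

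The alcohol dehydrogenases began apart. Adh1 ranged from 2.36 to 36.3 normalized counts at E10.5, and at E11.5 from 19.4 and 23.8 in the larynx to 525.6 and 484.5 in the trachea. At E13.5 it held 858.3 and 557 in the larynx, 240.2 and 463.3 in the esophagus, with 744.2 and 1220 in the trachea. These values overlapped those of E18.5 in the larynx (717.5 and 438) and in the trachea (1471 and 789.8). At E15.5 Adh1 was lower in the trachea, at 520.7 and 587.7 in short-code and 288.2 and 239 in index libraries. The E15.5 larynx held 948.2 and 777.2 in short-code and 233.6 and 346.9 in index libraries. In the esophagus Adh1 went on to 1911 and 1810 at E18.5. There it rose 5.32-fold (log2 2.403 ± 0.484, edgeR adjusted p = 0.00162). Its log2 differences were -0.29 ± 0.46 in the larynx (adjusted p = 0.931) and 0.20 ± 0.46 in the trachea (adjusted p = 1), neither past the threshold.

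Adh1 over all organs was the weakest of the calls, at log2 0.77 ± 0.27 with an edgeR adjusted p of 0.0336, and it was lost in 8 of 22 alternative analyses. The difference between the larynx and esophagus changes of Adh1 was -2.70 ± 0.66 on the log2 scale and did not pass the threshold (edgeR adjusted p = 0.362), nor did that between trachea and esophagus, at -2.20 ± 0.66 (edgeR adjusted p = 1).

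Adh7 was at 0 in 3 of 6 libraries at E10.5, with a highest value of 3.46, and between 2.62 and 21.4 at E11.5. At E13.5 it was lowest in the larynx, at 1.59 and 1.08, against 13.8 and 32.0 in the esophagus, with 3.84 and 13.3 in the trachea. By E18.5 it reached 151.7 and 99.3 in the larynx, 519.2 and 630.3 in the esophagus, with 443.5 and 216.2 in the trachea, with no overlap with E13.5 in any organ. It rose 25.2-fold in the esophagus (log2 4.65 ± 0.97, edgeR adjusted p = 0.00216) and 44.7-fold in the trachea (log2 5.43 ± 1.10, adjusted p = 0.0014). In the larynx the E13.5 libraries held 3 counts in all, the ratio was 89.8 with a 95% exact counting interval of 30.3 to 439.7, and the edgeR adjusted p was 0.00274.

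Aldh3a1 was at 0 in 15 of the 18 libraries from E10.5 to E13.5 and did not exceed 3.25 in the others. At E18.5 it was present in every library, at 105 and 160.1 in the larynx, 152.3 and 192.4 in the esophagus, with 305.2 and 284.4 in the trachea. Against the trachea at E13.5, which held no count, the E18.5 level was at least 193.8-fold higher (floor of 3 counts over the group, edgeR adjusted p = 0.00839). The ratios in larynx and esophagus rested on few E13.5 counts, at 98.2 (33.1 to 479.9, adjusted p = 0.0414) and 131.2 (44.3 to 641.5, adjusted p = 0.0238). The larynx call for Aldh3a1 was lost in 7 of 14 alternative analyses and the esophagus call in 4 of 14.

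Cyp2f2 was at 0 in all 6 libraries of E10.5 and in 4 of 6 at E11.5, and every library of E13.5 held it at between 9.73 and 21.5 normalized counts. The E13.5 libraries of the organs overlapped one another. At E18.5 it held 2959 and 2968 in the larynx, 10990 and 16120 in the esophagus, with 11290 and 10180 in the trachea. It rose 196.3-fold in the larynx (log2 7.65 ± 1.06, edgeR adjusted p = 5.91e-05), 793.5-fold in the esophagus (log2 9.63 ± 1.14, adjusted p = 2.21e-05) and 660.3-fold in the trachea (log2 9.41 ± 1.13, adjusted p = 1.69e-05).

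Cyp2a5 was nearly absent up to E13.5. It was at 0 in 15 of 18 libraries up to E13.5, where a single larynx library held 0.793, and its highest earlier value was 5.29 at E11.5. At E18.5 it held 97.7 and 100.5 in the larynx, 794.3 and 1330 in the esophagus, with 701.4 and 423.6 in the trachea. With no count at E13.5, it was at least 808.1-fold higher in the esophagus and at least 360.2-fold higher in the trachea (edgeR adjusted p = 0.000394 and 0.000793). The larynx ratio of 216.8 rested on 1 count, with a counting interval of 38.3 to 8621 (adjusted p = 0.0151).

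Gsta4 and Nqo1 were present from the first age. Gsta4 lay between 460 and 800 at E10.5 and E11.5 and between 806.7 and 1219 at E13.5 in all organs. At E18.5 it held 1003 and 1519 in the larynx, 3197 and 7868 in the esophagus, with 2371 and 2763 in the trachea. Only the esophagus passed the test, at 6.42-fold (log2 2.69 ± 0.64, edgeR adjusted p = 0.00652). The trachea was at log2 1.60 ± 0.62 (adjusted p = 0.108) and the larynx at 0.32 ± 0.61 (adjusted p = 1). With all libraries and the settings used throughout, the difference between organs did not pass its own test. In some alternatives the esophagus call was lost, and in some the trachea rise or the difference between larynx and esophagus passed. Nqo1 lay between 36.4 and 133.3 at E10.5 and E11.5, between 109.3 and 213.3 at E13.5 and between 124 and 371.3 at E18.5. Its log2 difference over all organs was 0.53 ± 0.43 (edgeR adjusted p = 0.501).

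Cbr2 was detected in every library, at 5.19 to 35.3 at E10.5 and E11.5 and 19.5 to 98.2 at E13.5. At E18.5 it held 1164 and 1206 in the larynx, 6558 and 10370 in the esophagus, with 12220 and 11780 in the trachea. It rose 28.2-fold in the larynx (log2 4.90 ± 0.81, edgeR adjusted p = 0.0002), 185.8-fold in the esophagus (log2 7.54 ± 0.90, adjusted p = 9.26e-06) and 153-fold in the trachea (log2 7.42 ± 0.90, adjusted p = 7.13e-06).

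By organ, 5 of the 8 rose in the larynx (5.45% of all genes did), 7 in the esophagus (6.14%) and 5 in the trachea (6.43%). Adh7, Aldh3a1, Cyp2f2, Cyp2a5 and Cbr2 rose in each organ, and Adh1 and Gsta4 passed in the esophagus. Without either E13.5 larynx library 2 remained called in the larynx, Cyp2f2 and Cbr2, and without library 1 of the E13.5 esophagus 3 remained there, Cyp2f2, Cyp2a5 and Cbr2. At E18.5 the sum of the 7 epithelial markers was 1.62-fold that of E13.5 in the larynx, 2.54-fold in the esophagus and 2.02-fold in the trachea, with all 7 detected in all 12 libraries. Lists for particular epithelial cells differed more. The squamous sum was 2820-fold, 626-fold and 563-fold that of E13.5 in larynx, esophagus and trachea, the secretory and club cell sum 81.9-fold, 78.3-fold and 573-fold and the ciliated cell sum 10.2-fold, 53.2-fold and 45.2-fold, from E13.5 levels of at most 21.6 CPM for the squamous and secretory lists. A list of 12 hepatocyte markers summed to between 86.8 and 2864 CPM at E13.5 and between 24.2 and 270.6 CPM at E18.5. The part of these lists in the differences was not tested.

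E15.5 was sampled by both library kinds, and the esophagus library that stood apart set several levels. Adh7 held 321.2 and 14070 in the esophagus index libraries and 710.6 and 992 in the short-code ones, and Aldh3a1 held 65.7 and 92980, and 52.4 and 66.8. Gsta4 held 1494 and 25920 beside 3065 and 4087, and Nqo1 106.3 and 2743 beside 54.2 and 133.6. In index library 2 these 4 genes were thus far above every other E15.5 esophagus library, and all 4 exceeded both adult larynx libraries there. Adh1 exceeded them too, but so it did in the short-code esophagus libraries (2287 and 2473 against 1603 and 1432 in the adult). Cyp2a5 (113.7 and 3631 beside 602.1 and 881.7), Cyp2f2 (7087 and 16490 beside 8540 and 11450), Cbr2 (2935 and 9875 beside 5055 and 5942) and Adh1 (1044 and 2486 beside 2287 and 2473) were also highest in that library, Adh1 by a narrow margin. Krt4 and Krt13, keratins of squamous lining, held 32260 and 36390 CPM there.

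In the trachea at E15.5 the library poor in epithelial markers, short-code library 1, held 43.8 normalized counts of Cyp2f2 against 2173 to 6748 in the other 3, and 116.8 of Cbr2 against 2294 to 7114. Cyp2a5 was at 0 in it, 128.3 in short-code library 2 and 9.85 and 9.91 in the index libraries. Short-code library 2 is among 3 libraries known from earlier work on these data for counts in many olfactory receptor genes, and 8 markers of olfactory epithelium, a tissue also known for Cyp2a5, summed to 25.4 CPM in it, within the 12.2 to 62.9 CPM of the other E15.5 libraries. In short-code library 1, Adh1, at 520.7, and Gsta4, at 621.3, were close to the other trachea libraries (239 to 587.7 and 723.5 to 1279). In the larynx, where no library stood apart, short-code libraries were above index libraries for Adh7 (273.7 and 237.4 against 148.1 and 130.6), Adh1 (948.2 and 777.2), Aldh3a1 (149.4 and 116), Cyp2f2 (6053 and 4784), Cyp2a5 (349.1 and 188.1), Gsta4 (1460 and 1473) and Cbr2 (5775 and 4322), but not for Nqo1 (171.6 and 96.7). Of all genes 29.4% had this order in the larynx, where the 12 secretory and club cell markers summed to 2051 and 2210 CPM in short-code and 145.9 and 201.2 CPM in index libraries, and their part was not tested.

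Between the library kinds at E15.5, averaged over organs, 2 of the 8 were higher in index libraries (10.3% of genes were) and 2 lower (16.1%), with an all-gene median of -0.39. Aldh3a1 (log2 2.87 ± 0.79, edgeR adjusted p = 0.00851) and Nqo1 (2.13 ± 0.44, adjusted p = 0.000517) were the higher, and Adh1 (-1.03 ± 0.27, adjusted p = 0.00466) and Cyp2a5 (-1.83 ± 0.61, adjusted p = 0.0304) the lower. Without the 2 libraries that stood apart, none was higher (10.4% of genes were) and 4 were lower (17.7%), Adh7 (-1.24, adjusted p = 0.000238), Adh1 (-1.299, adjusted p = 5.84e-05), Cyp2a5 (-3.50, adjusted p = 2.36e-12) and Gsta4 (-0.54, adjusted p = 0.0451). Adipocyte markers summed to between 340.4 and 5646 CPM in the short-code libraries of E15.5 and between 8.14 and 853.6 CPM in the index ones, and their part in these differences was not tested. Because P0 and adult libraries are all of the index kind, they were set beside the E15.5 index larynx above and not beside E18.5.

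At E18.5 the larynx libraries held the lowest values for most of these mRNAs. In the values above, all 4 libraries of esophagus and trachea were above both larynx libraries for 7 of the 8 genes, Aldh3a1 being the exception (8.02% of all genes had this order), and the trachea libraries were wholly above the larynx for all 8 (17.1%). Esophagus exceeded trachea without overlap for Adh7, Adh1, Cyp2a5 and Gsta4 (14% of all genes). Cbr2 and Aldh3a1 were instead higher in both trachea libraries than in both esophagus libraries, as was Nqo1 (371.3 and 305.8 against 188.3 and 192.4), an order that 14.3% of all genes had.

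With the low-count filter and median-ratio scaling used throughout, none of these organ differences passed the threshold in edgeR with all libraries. For larynx minus esophagus 0 of 8 passed (0.00274% of genes did), with 6 at an unadjusted p under 0.05 (4.2% of genes) and 1 passing in DESeq2. The largest were Cyp2a5 at log2 -3.42 ± 1.05 (adjusted p = 0.613) and Cbr2 at -2.84 ± 0.72 (adjusted p = 0.291). For larynx minus trachea 0 of 8 passed (0.112% of genes), with 4 at an unadjusted p under 0.05 (5.93%) and 1 in DESeq2, and Cbr2 came nearest at -3.34 ± 0.74 (adjusted p = 0.0633). For trachea minus esophagus 0 passed (0% of genes), 0 at an unadjusted p under 0.05 (2.23%) and 0 in DESeq2. Without the filter, 6 passed for larynx and esophagus (1.7% of genes), 7 for larynx and trachea (2.61%) and 1 for trachea and esophagus (0.774%). For larynx and trachea 1 passed with TMM scaling (0.172%) and 1 with the replicate number as a block (0.123%).

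Without the 2 libraries that stood apart, which are of E15.5 but share the estimate of spread, 6 were lower in larynx than esophagus (1.46% of genes were). They were Cyp2a5 (edgeR adjusted p = 1.16e-06), Cbr2 (3.58e-06), Cyp2f2 (3.56e-05), Gsta4 (8.26e-05), Adh7 (0.00105) and Adh1 (0.00747). In the same analysis 5 were lower in larynx than trachea (1.44% of genes), Cbr2 (1.61e-07), Cyp2a5 (2.66e-05), Cyp2f2 (0.000168), Adh7 (0.048) and Aldh3a1 (0.0495). Leaving these libraries out was chosen after the data were seen.

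The larynx was also lowest in the 7 general epithelial markers, in which esophagus and trachea overlapped, and the organs differed in other cell types. The 7 epithelial markers summed to 238.6 and 384 CPM in the E18.5 larynx, 570.6 and 1226 in the esophagus, with 685 and 745.3 in the trachea, all 7 detected in each. That sum may undercount stratified lining here too, since it includes Krt8 and Krt18. Divided by that sum, Cbr2 was 0.099 to 0.143 in the larynx, 0.324 to 0.383 in the esophagus and 0.615 to 0.705 in the trachea. On that scale Cyp2f2, Cyp2a5 and Gsta4 were also lowest in the larynx, Adh7 and Adh1 overlapped between larynx and trachea, and Adh1 also between larynx and esophagus. Aldh3a1 (0.0129 to 0.0131 in the larynx, 0.006 to 0.00891 in the esophagus) and Nqo1 (0.0139 to 0.0152 and 0.006 to 0.011) were higher in the larynx than in the esophagus. A list of 12 secretory and club cell markers summed to 322.8 and 1008 CPM in the larynx, 477.5 and 509.5 in the esophagus, with 4465 and 12210 in the trachea, and 9 thyroid follicle markers to 22.4 and 558.9, 1933 and 3447, and 6789 and 10120. Squamous markers did not have the larynx lowest, at 1705 to 4574 CPM in the larynx, 4168 to 8952 in the esophagus and 852.2 to 1935 in the trachea. In the same order of organs, ciliated cell markers summed to 11.75 to 53.15, 210.4 to 333.6 and 225.3 to 257 CPM. Skeletal muscle markers summed to 49850 to 56800, 33950 to 39670 and 26270 to 26710 CPM. The part of these lists in the organ differences was not tested.

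**Figure D3:**
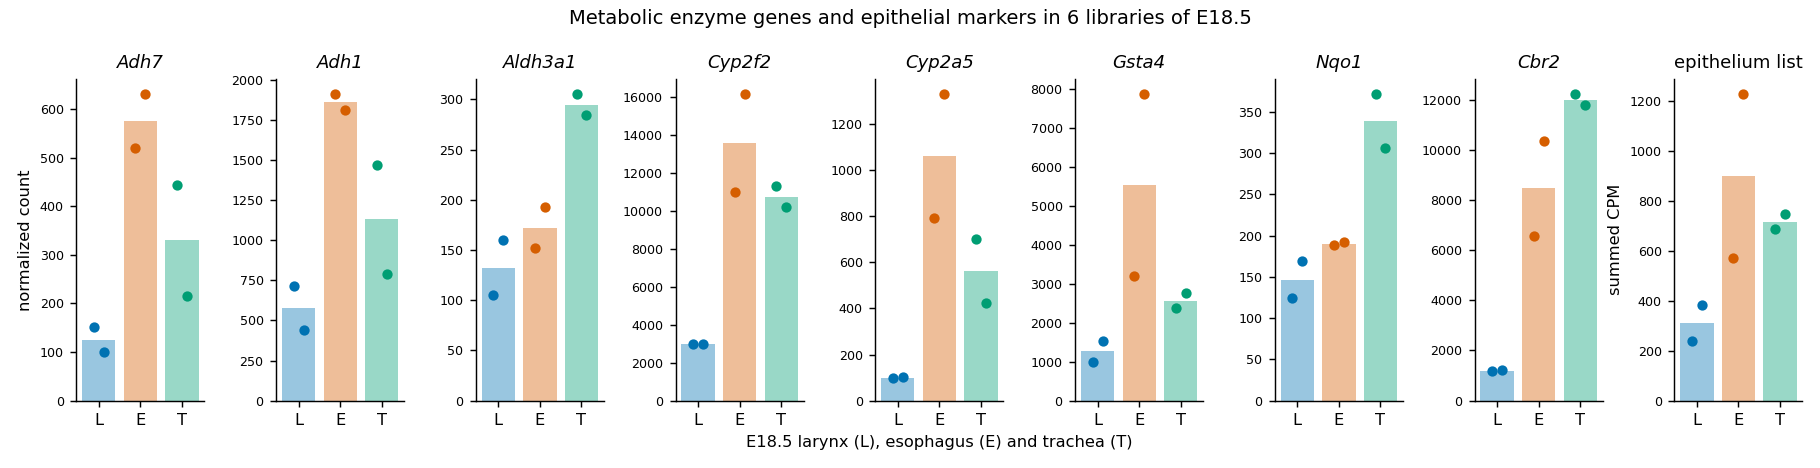
Normalized counts of the 8 genes, and in the last panel the summed CPM of 7 epithelial markers, in the 6 libraries of E18.5 (L larynx, E esophagus, T trachea), each axis starting at 0. Points are libraries and bars are group means. The larynx points lie lowest for every gene but Aldh3a1, whose larynx and esophagus points overlap.

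Whether the rise from E13.5 to E18.5 differed between organs was tested as an interaction. In edgeR no member passed for larynx minus esophagus (0.00822% of genes did, 3 members and 4.48% of genes at an unadjusted p under 0.05, and 1 member in DESeq2). None passed for larynx minus trachea (0% of genes, 1 member and 3.79% of genes unadjusted, 0 in DESeq2) or for trachea minus esophagus (0% of genes, 1 member and 2.43% of genes unadjusted, 0 in DESeq2). Without the 2 libraries that stood apart, 4 members passed for larynx minus esophagus, all with the smaller change in the larynx (0.532% of genes), 1 for larynx minus trachea, in the same direction (0.209%), and 0 for trachea minus esophagus (0.0165% in either direction).

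Across the 40 libraries the 28 pairs of members had Pearson correlations of log2(normalized count + 1) between 0.554 and 0.986, with a median of 0.772. All points share library and depth within a pair, and age orders most of them. The 40 also include the P0 and adult larynx libraries, whose rise chose the members, so these are descriptions. Cyp2f2 and Cbr2 were the most alike pair (r = 0.986, n = 40 libraries), and each was the other's nearest gene among 17309 genes with at least 50 normalized counts in at least 2 libraries. Serpinb11 was near both (0.976 and 0.971), Cd9 near Cyp2f2 (0.973) and Pglyrp1 near Cbr2 (0.975).

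The nearest genes of Cyp2a5 were Defb1, an epithelial antimicrobial peptide (0.969), Psca (0.967) and Gsto1, another glutathione transferase (0.966). Gsta4 was nearest to Por, the reductase that feeds electrons to P450 enzymes (0.958), Hebp2 (0.944) and Ggh (0.939). Adh7 was nearest to Tmem154 (0.957), Calml3 (0.954) and Ankrd35 (0.951), and Aldh3a1 to Rabgef1 (0.965), Slc6a8 (0.956) and Tent5b (0.954). Adh1 was nearest to Dhrs3, a retinal reductase (0.925), Nab1 (0.922) and Rarres2 (0.918). Nqo1 was nearest to Rela (0.926), Sorbs3 (0.901) and Tbc1d10a (0.893).

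Genes beside the members on the chromosome did not all follow them. Within 200 kb of the Adh pair, Adh6a went from 3.86 and 1.42 normalized counts in the P0 larynx to 222.9 and 122.7 in the adult, while Adh5, the widely expressed formaldehyde-oxidising form, held 1449 and 1261 and then 968.1 and 1104. Adh4 stayed at or below 1.42 in these libraries. On the opposite strand 4930579F01Rik, annotated as protein-coding, spans Adh7. It did not exceed 0.586 in the larynx from E13.5 on (short-code libraries of E15.5 not examined) or in the other organs at E18.5. Beside the Cyp2 pair, Cyp2b19 held 15.99 and 27.76 at P0 and 99.0 and 91.7 in the adult, and Cyp2g1, Cyp2a12, Cyp2a22 and Cyp2b23 held at most 1.94 in the adult larynx, next to Cyp2a5 at 18300 and 19780.

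**Figure D4:**
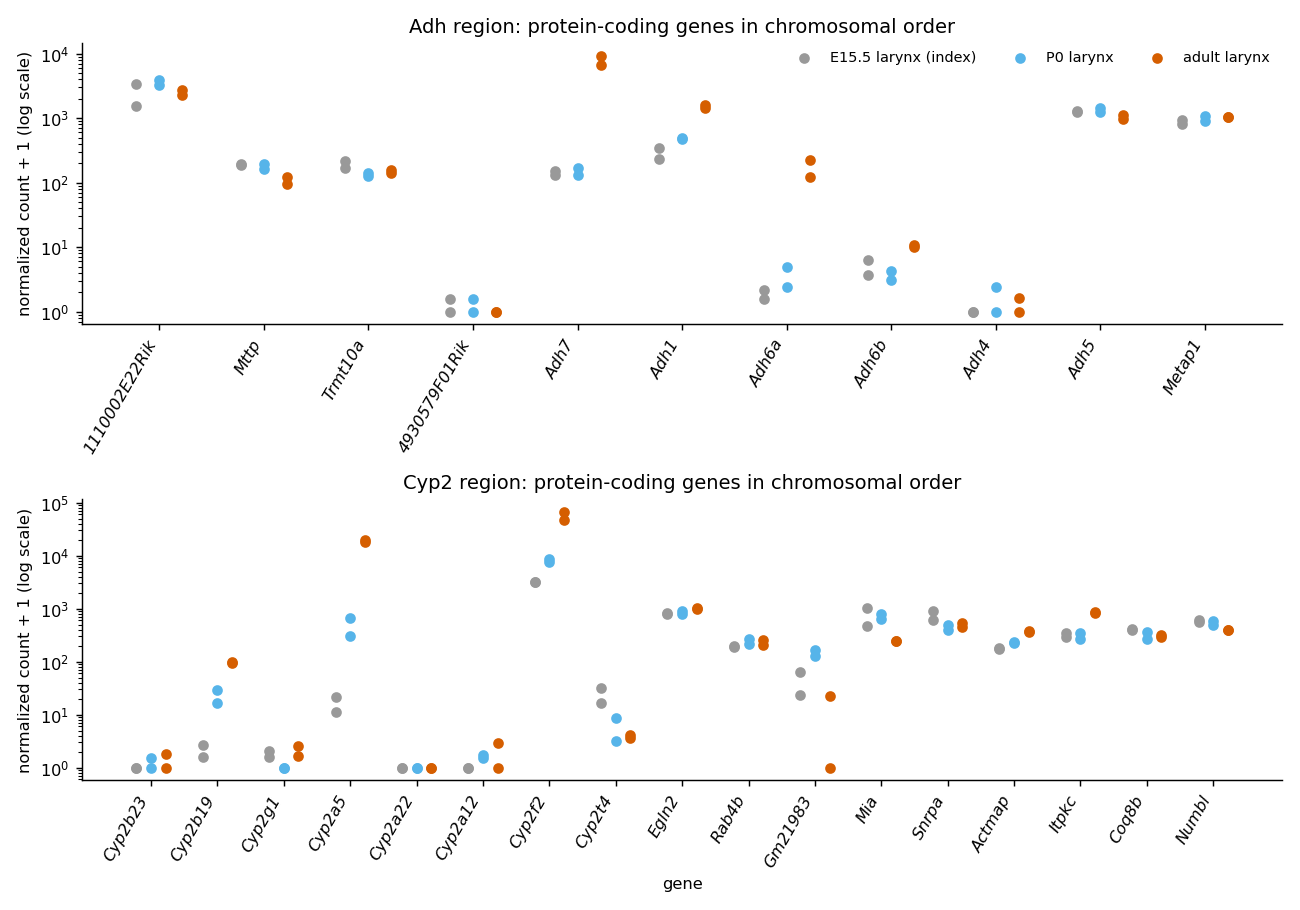
Normalized count + 1 (log scale) of protein-coding genes around the Adh7 and Adh1 pair and around the Cyp2a5 and Cyp2f2 pair, in chromosomal order, with both libraries of each group shown as points. In the adult larynx Adh5 and Adh6a are the highest other Adh genes, at 968.1 and 1104 and at 222.9 and 122.7.

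The rest of the pathway was read from 8 lists of 185 other genes found in the tables, of which 184 were tested. From E13.5 to E18.5, averaged over organs, 69 rose (37.5%, beside 13.9% of all genes) and 30 fell (16.3%, beside 10.9%), with a median log2 difference of 0.30 beside 0 over all genes. Genes of xenobiotic oxidation and hydrolysis had 18 of 35 higher and 1 lower, with the epoxide hydrolase Ephx1 going from 62 to 111.1 up to 688.6 to 966.1 normalized counts (log2 3.20 ± 0.39) and the P450 Cyp2b10 from 0 to 6.03 up to 14.6 to 311.8. Glutathione genes had 12 of 30 higher and 1 lower, with Gsto1 from 311.7 to 463.2 up to 3415 to 30990 (4.31 ± 0.44), and the secreted peroxidase Gpx3 lower (-2.17 ± 0.32). Glucuronide and sulfate transfer had 9 of 21 higher and 3 lower.

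The alcohol and retinol dehydrogenases other than Adh1 and Adh7 were more evenly divided, with 3 of 21 higher (14.3%, near the share of all genes) and 5 lower (23.8%). Dhrs9, a retinol dehydrogenase, went from at most 4.33 normalized counts to 58.3 to 2302 (log2 8.47 ± 0.60), and Adh6b was lower (-2.60 ± 0.61). Aldehyde dehydrogenases had 6 of 19 higher and 5 lower. Aldh3b2, of the same family as Aldh3a1, rose (3.40 ± 0.53), Aldh1a1, which makes retinoic acid, rose (2.44 ± 0.50), and Aldh1b1 and Aldh1a2, a further retinoic acid enzyme, fell (-4.68 ± 0.37 and -2.27 ± 0.25). Quinone, carbonyl and aldo-keto reductases had 4 of 16 higher and 6 lower, Cbr3 higher (2.60 ± 0.49) and Cbr1 lower (-0.64 ± 0.18).

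Of the regulators, the NRF2 list had 11 of 24 higher and 3 lower, with Maff, a small partner of NRF2, higher (log2 2.13 ± 0.20) and Txnrd1, a selenium-dependent reductase, lower (-0.75 ± 0.11). The list of aryl hydrocarbon and xenobiotic receptors, which also held retinoid carriers, had 6 of 18 higher and 6 lower. Ahr, the receptor for dioxin-like compounds, rose from 288.8 to 479.3 up to 522.1 to 1123 (1.15 ± 0.21), and Crabp1, a retinoic acid carrier, fell (-3.60 ± 0.32).

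From P0 to the adult larynx, 34 of the 184 other pathway genes rose (2.08% of all genes did) and 2 fell (2.04% of all genes), with a median log2 difference of 0.92 beside 0. These counts were unstable, with 4 to 87 genes called over the alternatives, 4 and 7 without adult library 1 and 2, and 4 and 3 without P0 library 1 and 2. Xenobiotic oxidation and hydrolysis gave 15 of the 34.

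Among conjugating enzymes, Gsta3 and Gstm1 rose (log2 3.13 ± 0.71 and 2.79 ± 0.79), with 6 of 30 glutathione genes higher. Aldh2, the mitochondrial enzyme that clears acetaldehyde from ethanol, went from 1158 and 1281 to 3587 and 3678 (1.57 ± 0.38), and Aldh18a1, of proline synthesis, fell (-0.81 ± 0.20). Nfe2l2, which encodes NRF2, went from 981.6 and 1168 to 3095 and 3638 (1.65 ± 0.34, edgeR adjusted p = 0.00414), with 3 of 24 genes of its list higher. Crabp1 and Crabp2 rose (3.13 ± 0.56 and 3.64 ± 0.84), Rxrg fell (-1.92 ± 0.46), and none of the 21 glucuronide and sulfate transfer genes passed. Each call on a gene named in this paragraph was lost in some of 13 alternative analyses. That was 7 for Gstm1, 5 each for Gsta3, Aldh2, Aldh18a1 and Rxrg, 4 for Crabp2, 3 for Nfe2l2 and 1 for Crabp1.

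**Figure D5:**
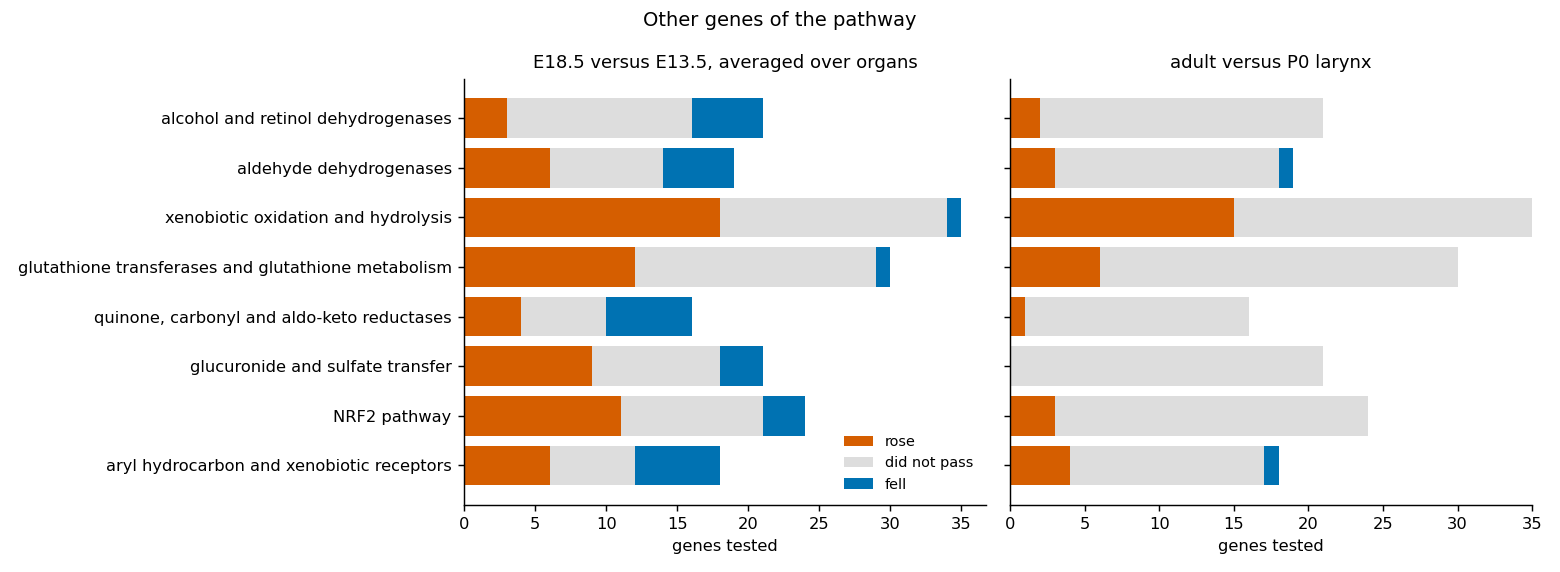
Number of genes in each of the 8 pathway lists that rose, fell or did not pass, for E18.5 against E13.5 averaged over organs and for the adult against the P0 larynx. Xenobiotic oxidation and hydrolysis shows the most risers in both comparisons, 18 and 15 of 35.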

How the data were processed

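RNA was measured by bulk sequencing of poly-A libraries from wild-type larynx, esophagus and trachea. The submitters' processing notes name FastQC 011.5, Bowtie2 2.4.2, RSEM 1.3.3 and GRCm39, and the authors deposited one expected count per gene and library, estimated by RSEM before any normalization. RSEM shares reads among genes they match equally, which touches close paralogs, and no source used here says whether strand was used.

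Expected counts were rounded and scaled by median-ratio factors, and a gene was kept where 2 or more libraries reached a normalized count of 1 (36495 genes, 40 libraries). edgeR 4.0.16 (R 4.3.3, limma 3.58.1) fitted the quasi-likelihood model to 20 groups of organ, age and library kind with 2 libraries each, using edgeR's trended dispersion (its joint estimate was an alternative). Benjamini-Hochberg adjustment ran over all genes tested, with thresholds of under 0.05 for contrasts and at most 0.01 for the time course, a natural spline of age rank (3 degrees of freedom) over the 36 embryonic libraries. Scripts were tested on simulated data. A change is given as log2 fold with its SE. That SE is the size of the log2 fold divided by the square root of the edgeR F statistic. It rests on the spread over all 20 groups and not on the 2 libraries of a group alone. Where a group held no count, folds are taken at a floor of 3 counts over the group, beside the lower limit of a 95% exact interval. For 1 to 3 counts a 95% exact interval is given, and both cover counting error only.

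The members and gene lists were chosen with earlier results of these data known. Named pathway genes were, per list and contrast, the 2 largest rises and 2 largest falls past the threshold with a mean of at least 50 normalized counts in the higher group, named in part. Likeness was Pearson's r over 40 libraries, the 3 nearest genes per member. Coordinates are GENCODE vM39 on GRCm39, and promoters RefSeq on GRCm38.p6. Alternatives were TMM scaling, other low-count filters, DESeq2 1.42.0, short-code libraries alone, 17 groups, a replicate block, and leaving libraries out.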

Additional observations from a re-analysis of the deposited data

Results flagged for a closer look

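In the E15.5 groups of 4 libraries of an organ, 24 groups of values were examined for a library far from the other 3, a rule by which chance flags about 5 percent of groups, and 6 were picked out. In 4 of them the library was index library 2 of the esophagus, where Adh7 was 14070 normalized counts (321.2 to 992 in the others), Aldh3a1 92980 (52.4 to 66.8), Gsta4 25920 (1494 to 4087) and Nqo1 2743 (54.2 to 133.6). In the same organ Adh1 was lowest in index library 1, at 1044, against 2287 to 2486. Cyp2a5 in the trachea was highest in short-code library 2, at 128.3, against 0 to 9.91.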

How the results depend on the processing

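With 2 libraries a group the spread was estimated over all groups, a group left with 1 library was assumed to vary like the others, and levels near 0 rest on a few counts. The 8 members varied with embryonic age under every alternative and every left-out library, and 6 to 7 rose from E13.5 to E18.5 over all organs. Within organs, the larynx count of 5 was 3 with 17 groups (organ and age only) and 2 to 4 with 1 library left out, the esophagus count of 7 was 3 to 7 and the trachea count of 5 was 4 to 5 with 1 library left out.

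The organ counts at E18.5 and the interactions, all 0, also moved. Without the filter on low counts they were 1 (trachea and esophagus), 6 (larynx and esophagus) and 7 (larynx and trachea), and for the interactions 1, 3 and 1. For larynx and esophagus DESeq2, short-code libraries alone and leaving out the 3 libraries with olfactory receptor counts each gave 1 at E18.5, and DESeq2 and short-code libraries alone each gave 1 for the interaction. For larynx and trachea TMM scaling, DESeq2, short-code libraries alone and leaving out the 3 libraries each gave 1. Leaving out the 2 libraries that stood apart, chosen after seeing the data, gave 6 and 5 at E18.5 and 4 and 1 for the interactions with the larynx. edgeR's jointly estimated dispersions, also added after seeing the data, were tried for the same results.

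At E15.5 the 4 calls between library kinds were 7 without the filter and 3 to 6 with 1 library left out. With 1 library left out, the log2 difference ran from -1.04 to 0.80 for Adh7, from -0.28 to 3.42 for Aldh3a1 and from -3.17 to 1.23 for Cyp2a5. That of Adh7 (0.45 with all) was -1.24 without the 2 libraries that stood apart and -1.04 without index library 2 of the esophagus, that of Aldh3a1 -0.53 and -0.28, and that of Gsta4 -0.54 without both. For Cyp2a5 it was 1.12 without the 3 libraries and 1.23 without short-code library 2 of the trachea. Of the other pathway genes, 36 were called between adult and P0, and 73 without the filter, 60 in DESeq2, 4 with 17 groups, 87 without the 2 libraries and 3 to 7 with 1 library left out. The causes were not tested.

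With a replicate block, 1 member differed between larynx and trachea at E18.5, where the unpaired count was 0. Over 14381 genes the deviations of same-numbered libraries correlated at -0.129 to 0.061 between ages and -0.34 to 0.375 between organs, with 10 of 18 organ pairs above 0.1. All 3 organ pairs were above it at E13.5 (0.214 to 0.266) and at E18.5 (0.145 to 0.188), a hint from the data, and no label says that a number marks a shared litter or day. The block moved no other count of members by more than 1.5 times.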
